A study of Mus musculus with 6 samples.

Results

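The 10 genes followed here were tied by earlier work to dormant, label-retaining or low-output hematopoietic stem cells (HSCs): Gprc5c, Neo1, Tcf15, Clec1a, Clca3a1, Mycn, Vldlr, Nupr1, Sult1a1 and Rarb. They were picked by name, and all 10 were found among the 47937 genes of the deposited table. Both groups were HSCs from the bone marrow of wild type C57BL/6 male mice aged 8 weeks, sorted by flow cytometry as LSK+ CD34- Flt3- CD48- Slam1+ after depletion of lineage-positive cells, with no treatment. The first group carried the surface receptor CD93 (HSC CD93+, written CD93pos below) and the other did not (HSC CD93-, CD93neg), with 3 polyA RNA-seq libraries in each. The comparison asks how the RNA of CD93+ HSCs differs from that of CD93- HSCs. The labels call the libraries biological replicates but leave out which mice went into each, or how many were pooled, so p-values measure only the spread between these libraries.

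Dormant HSCs divide rarely, keep a diluted label for long periods and can rebuild blood after transplantation, while low-output HSCs persist but send few mature cells into the blood. Retinoic acid signalling, a low level of Myc protein and slow protein synthesis are known features of the dormant state. The genes followed here encode a retinoic acid receptor (Rarb), a retinoic acid-induced orphan receptor used as a reporter of dormancy (Gprc5c), transcription factors (Mycn, Tcf15), surface receptors (Clec1a, Vldlr, Neo1), a chloride channel regulator (Clca3a1), a nuclear stress protein (Nupr1) and a sulfotransferase (Sult1a1).

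Rarb is a textbook target of its own receptor family, and Nupr1 of the stress factor ATF4, so the sites of these kinds near their RefSeq start sites are shown. RefSeq (GRCm38.p6) held promoter windows, from 250 bases before to 50 after a start, for 7 of the 10 genes: 8 windows in all, since Vldlr had a pair of starts. The stretches below are 30 bases each, 5′ to 3′ on the gene's strand, with the match in capitals. The Rarb stretch lies at chr14:16575506-16575535 (minus strand), the Nupr1 stretch at chr7:126625562-126625591 (minus strand) and the Vldlr stretch at chr19:27216809-27216838 (plus strand).
Rarb: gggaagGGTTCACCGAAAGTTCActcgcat
Nupr1: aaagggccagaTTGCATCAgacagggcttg
Vldlr: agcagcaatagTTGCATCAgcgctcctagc
The capitals in Rarb are a direct repeat of retinoid receptor half-sites with a spacer of 5 bases (DR5). Its first base lies 53 bases before the start, and 32 of 32851 promoter windows of the same length (0.0974%) held a match on either strand. In Nupr1 and Vldlr the capitals are TTGCATCA, a form of the amino acid response element bound by ATF4 with C/EBP factors, 110 and 200 bases before the start, and 294 windows (0.895%) held it. In the GENCODE M21 annotation the Rarb and Nupr1 stretches fall in untranslated exon of other transcripts of the same gene, and the Vldlr stretch falls in an exon of a retained-intron transcript. The half-site AGGTCA was in none of the 8 windows and in 16.3% of all, the Myc E-box CACGTG in that of Nupr1 and in 7.15% of all, and the E-box CAGCTG in those of Clca3a1, Nupr1 and Vldlr and in 16.3% of all. The motifs did not overlap each other in these windows, and a match is a description of the letters only.

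The CD93neg libraries stood apart in depth and in the number of genes read. Assigned reads were 5794528 to 9509304 in CD93pos and 2832653 to 4614396 in CD93neg. Of the 11805 genes tested, those whose normalized count averaged 10 or more over the libraries, 86.5% to 97.9% had a read in each CD93pos library, against 29.0%, 73.6% and 84.0% in CD93neg replicates 1, 2 and 3. Meis1 and Hlf, genes known in HSCs and named after their values were seen, were read in all 6 libraries, while Slamf1, Ly6a and Procr had no read in CD93neg replicate 1. Genes of the markers that the sort excluded were read too. Cd34 had 3216, 1603 and 2496 reads in CD93pos against 1715, 0 and 767 in CD93neg. Cd48 had 640, 371 and 487 against 0, 146 and 67, and Flt3 had 236, 0 and 195 against 0, 172 and 13. Cd93 itself had 906, 1001 and 550 reads in CD93pos against 0, 419 and 38 in CD93neg. Although the labels give male mice for both groups, 4 Y-linked genes (Ddx3y, Eif2s3y, Kdm5d and Uty) together had 1100 to 2196 reads in each CD93pos library and 1 read in all CD93neg libraries. Xist had 2419 and 1143 reads in CD93neg replicates 2 and 3, 12 in CD93pos replicate 3 and 0 in the other 3 libraries. This difference follows the groups, so it and CD93 status cannot be told apart.

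None of the genes followed passed the test of CD93pos against CD93neg. The test was limma on log2(normalized count + 1), a normalized count being a gene's reads divided by the library's size factor, with Benjamini-Hochberg adjustment over all genes tested at 0.05. Gprc5c and Neo1 were below the filter on low values, and of the 8 tested genes 0 were called, where the same test called 0% of all genes. At an unadjusted p under 0.05, Rarb alone was higher in CD93pos, beside 11.8% of all genes tested (1391) that were higher and 0.381% (45) that were lower. By edgeR 0 genes were called (1067 higher and 178 lower by unadjusted p at the same threshold), and DESeq2 called 705 genes (5.97%), none of them among the 8. However, DESeq2 gave Rarb, Clec1a and Clca3a1 no p-value, so it could not call these. The log2 fold change, here always CD93pos over CD93neg, was positive for 5 of the 8 (Rarb, Clec1a, Vldlr, Tcf15 and Clca3a1) and negative for Mycn, Sult1a1 and Nupr1, with Tcf15 turning to -0.34 under quantile normalization. Over all genes 79.9% were positive, and 60.1% without CD93neg replicate 1. The median was 2.69 over the 8 genes and 2.36 over all genes. Without CD93neg replicate 1 these medians were 1.67 and 0.43, and under quantile normalization they were -0.15 and 0.02. Relative to the median of all genes, the log2 fold changes were 3.14 for Rarb, 2.52 for Clec1a, 2.13 for Vldlr, 0.67 for Tcf15, -0.01 for Clca3a1, -3.26 for Mycn, -3.50 for Sult1a1 and -4.32 for Nupr1. These relative values depended on single libraries and on the scaling. Without CD93neg replicate 2 they were 0.24 for Clec1a, 0.15 for Vldlr, -1.005 for Tcf15 and -2.04 for Clca3a1. Without CD93neg replicate 1 they were -0.70 for Mycn, -1.57 for Nupr1 and 5.07 for Rarb, and under quantile normalization -0.56 for Mycn, -2.09 for Nupr1 and 0.83 for Rarb. That of Sult1a1 ran from -4.82 to -1.19 with each library left out. In bulk RNA, fewer cells that express a gene and less RNA per cell cannot be told apart.

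**Figure D1:**
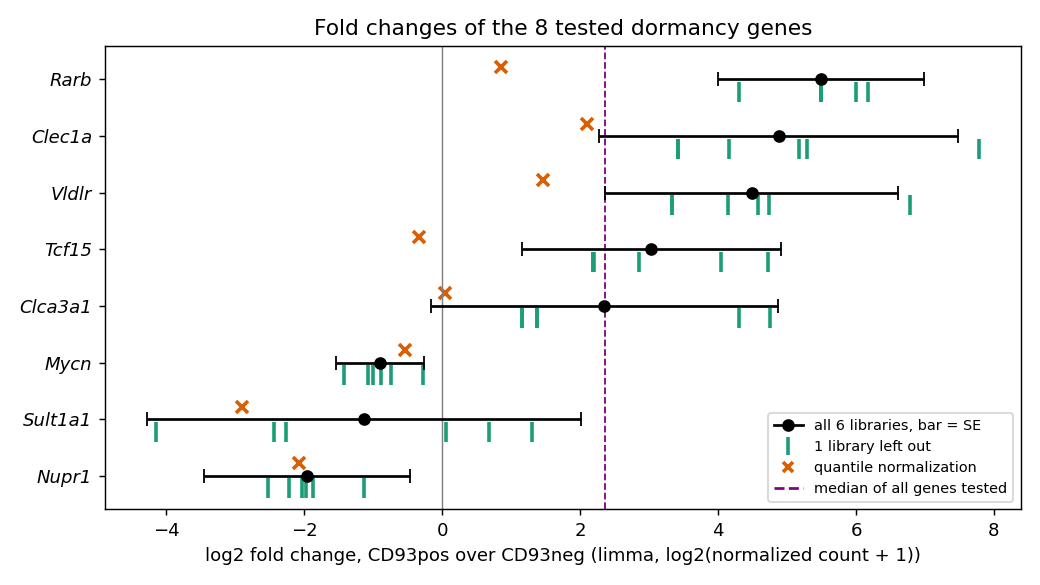
Log2 fold change of CD93pos over CD93neg with its standard error for the 8 tested genes (limma, log2(normalized count + 1)), as points and bars; ticks show fits with 1 library left out, crosses quantile normalization and the dashed line the median of all genes tested. Rarb (5.49) is highest and Nupr1 (-1.96) lowest, and none passed the adjusted threshold.

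The genes fell into a few patterns of where they were read at all. Tcf15, Clec1a, Clca3a1 and Vldlr had reads in all 3 CD93pos libraries and, among CD93neg, in replicate 3 alone. That pattern was shared by 1245 genes, 10.5% of those tested. Rarb had reads in all 3 CD93pos and no CD93neg library, like 4.60% of tested genes (543). Mycn and Nupr1 were read in all 6 libraries, like 22.9%. In CD93neg replicates 1 and 2 together, 5 of the 8 genes had no read, where 21.97% of all tested genes had none. Counted per library, 8, 7 and 8 of the 8 were read in CD93pos replicates 1, 2 and 3, and 2, 3 and 7 in those of CD93neg. These counts are not independent of one another, since genes of a library share its depth and the number of genes it captured.

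**Figure D2:**
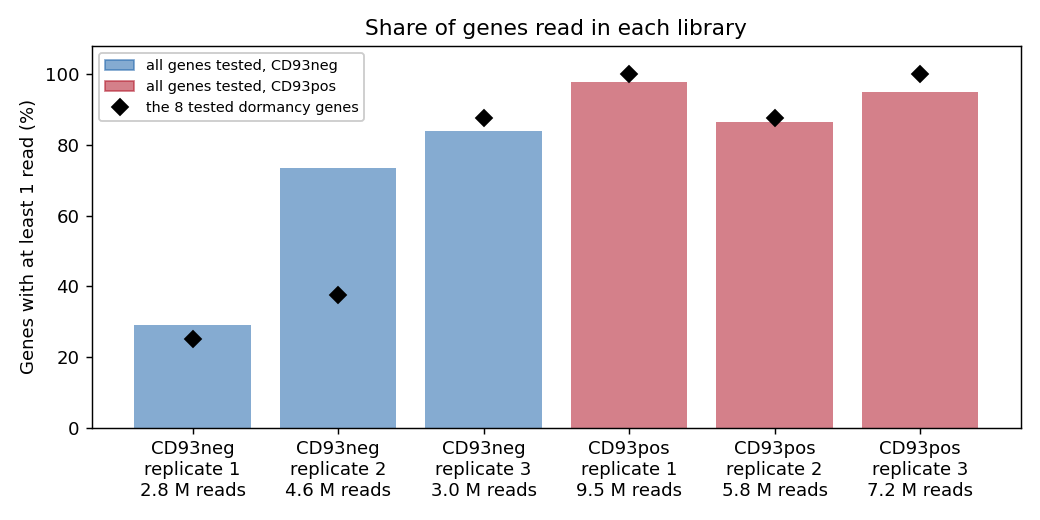
Share of the 11805 tested genes (bars) and of the 8 tested dormancy genes (diamonds) with at least 1 read in each library, in percent, with assigned reads under each name. CD93neg replicate 1 has the lowest share of all genes, 29.0%, and in CD93neg replicates 1 and 2 the dormancy genes lie below the bar.

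Rarb encodes the retinoic acid receptor beta, a nuclear receptor that pairs with a retinoid X receptor on DR5 sites such as the one printed above. It lies on chromosome 14 at 16430839 to 16819156 (GRCm38, minus strand, ENSMUSG00000017491.8). It had 36, 292 and 35 reads in CD93pos replicates 1, 2 and 3, or 16.5, 231 and 21.5 normalized counts, and 0 reads in each CD93neg library. The groups did not overlap, with CD93pos replicate 2 far above its own group. Such a separation with CD93pos higher held for 18.3% of all tested genes (2162). Since CD93pos carried all of its reads, Rarb passed the filter through that group alone. The pooled level was 16.2 CPM (reads scaled to 1000000 assigned reads) in CD93pos. Set against the floor of 3 reads over the whole CD93neg group (0.287 CPM), it was at least 56.3-fold higher in CD93pos, and at least 14.8-fold higher without CD93pos replicate 2. At the lowest CPM of CD93pos, the CD93neg libraries would have held 10.7, 17.5 and 11.4 reads. Such expected reads, here and below, assume that depth alone sets whether a gene is read. That did not always hold: Sult1a1 had 0 reads in CD93pos replicate 2, where its lowest CPM in a library that read it would give 186. Intervals and floors cover counting error only. The log2 fold change was 5.49 (SE 1.499), with an adjusted p of 0.123 by limma. It was 4.31 by limma without CD93pos replicate 2, the library with most of the Rarb reads, and 0.85 under quantile normalization (adjusted p = 0.877 by limma). The fit without CD93pos replicate 2 gave Rarb an adjusted p of 0.0196 by limma, and called 774 of 11805 genes. Its filter was set on all 6 libraries, so the library left out helped to keep Rarb in the test. With CD93neg at 0 throughout, the sign was fixed in advance, and the call adds no support. The exact two-sided permutation test of CPM gave p = 0.1, the smallest that 3 against 3 allows.

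The authors' deposited table gave no p-value for Rarb, Clec1a or Clca3a1. Rarb shares 1793 exon bases on the opposite strand with Top2b, which encodes topoisomerase II beta, and 227 with the antisense gene Gm48162. Whether the counting used strand is not given in the sources used here. Reads of Rarb and Top2b may therefore not be separable. Top2b had 1067, 629 and 500 reads in CD93pos replicates 1, 2 and 3 against 0, 2 and 89 in those of CD93neg. Top2b was highest in CD93pos replicate 1, and Rarb in CD93pos replicate 2. Whether reads of either gene came from the other was not tested.

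The other retinoic acid receptors were also thinly read. Rara had 81, 0 and 3 reads in CD93pos against 0, 0 and 44 in CD93neg, and Rarg had 46, 3 and 43 against 0, 0 and 9. In CPM per kb of exon, Rarb was above both of them in CD93pos replicate 2 alone (9.57, with Rara at 0 and Rarg at 0.122). Of 24 genes of retinoid transport, synthesis, breakdown and receptor cofactors, 14 were tested, 0 were called, 12 had a positive fold change and the median was 1.61. Without CD93neg replicate 1, 7 of the 14 were positive and the median was -0.02. The gene with the smallest p was Dhrs3, a retinaldehyde reductase that is itself induced by retinoic acid. It had 393, 185 and 269 reads in CD93pos against 0, 0 and 11 in CD93neg, with no overlap on normalized counts, 164 ± 16.6 against 5.73 ± 9.93 (mean ± SD, n = 3). Its log2 fold change was 5.97 (SE 1.65), with an adjusted p of 0.129 by limma. Aldh1a1, which makes retinoic acid, was at 4.61 (SE 1.99), Rdh10, which makes retinaldehyde, at 4.18 (SE 2.18), and the coactivator gene Ncoa2 at -2.66 (SE 1.65).

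Gprc5c, on chromosome 11 at 114851152 to 114872617 (plus strand), was all but unread. It had 1, 1 and 0 reads in CD93pos against 1, 0 and 1 in CD93neg, below the 3 reads that a count of 0 allows in a library. No difference was detectable at this depth, and no fold is given. Of its family, Gprc5b was the 1 tested gene, with a log2 fold change of 0.94 (SE 2.36), or -1.37 without CD93neg replicate 1, and the other two had no read.

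**Figure D3:**
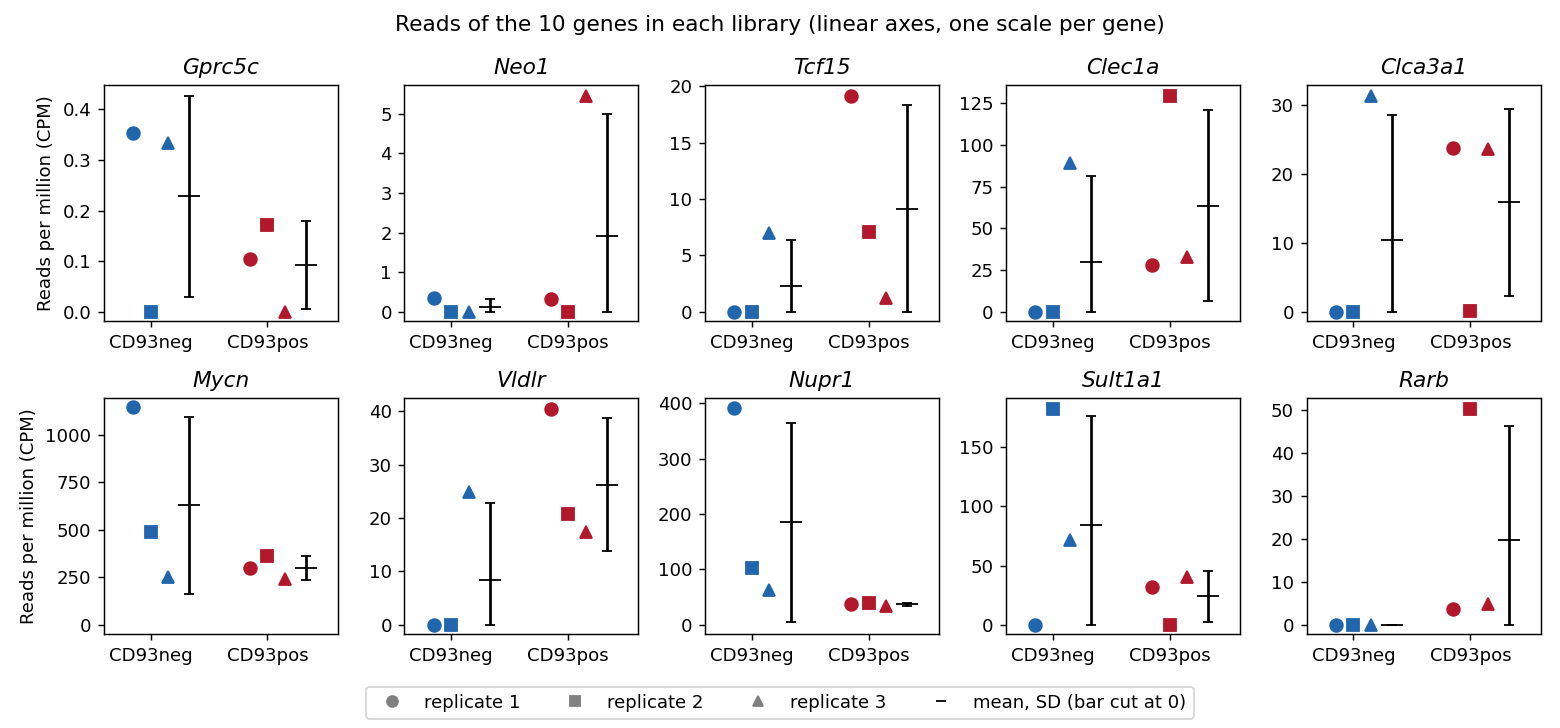
CPM (reads scaled to 1000000 assigned reads) of each of the 10 genes in each of the 6 libraries, by group, on a linear axis of its own per gene; shapes mark the replicate and bars the mean and SD, cut off at 0. Mycn is the most abundant in every library, and Rarb has reads in the CD93pos libraries only.

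Mycn, a Myc family transcription factor of immature cells, was the most abundant of the 10 genes in every library. The gene lies on chromosome 12 at 12936093 to 12941914 (minus strand). It had 2845, 2101 and 1713 reads in CD93pos against 3248, 2251 and 757 in CD93neg. Normalized counts were 1301, 1665 and 1054 against 5896, 2142 and 1183, so that the groups overlapped and CD93neg replicate 1 was highest. The means were 1340 ± 307 in CD93pos and 3074 ± 2491 in CD93neg (SD, n = 3). The CD93neg mean was thus 2.29 times that of CD93pos, and 1.24 times without CD93neg replicate 1. For Mycn the log2 fold change was -0.90 (SE 0.63), with an adjusted p of 0.586 by limma, and stayed between -1.43 and -0.27 with each library left out. Among the CD93pos libraries Mycn varied less than most of the 10, with a coefficient of variation of 0.205 in CPM.

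Myc, the relative that rises as HSCs leave dormancy, was read less evenly. It had 7642, 3705 and 5159 reads in CD93pos against 2, 1712 and 1701 in CD93neg. Per kb of exon, Mycn made up 23.5%, 31.9% and 21.5% of Mycn and Myc together in CD93pos, and 99.9%, 52.0% and 26.8% in CD93neg. The share lay above the CD93pos range in CD93neg replicates 1 and 2, and within it in CD93neg replicate 3. Of 11 tested genes of the Myc and Max network, 0 were called, 7 had a positive fold change and the median was 2.62, or 0.62 without CD93neg replicate 1. The lowest p belonged to Mxd3, a Max partner that opposes Myc and is known from dividing cells: it had 175, 63 and 198 CD93pos reads but 0 in every CD93neg library, with an adjusted p of 0.0558 by limma. Like Rarb, Mxd3 passed the filter on low values through CD93pos alone. Mxd4 (5.22, SE 2.20), Max (4.42, SE 2.54) and Myc (3.56, SE 2.19) had positive log2 fold changes that did not pass.

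**Figure D4:**
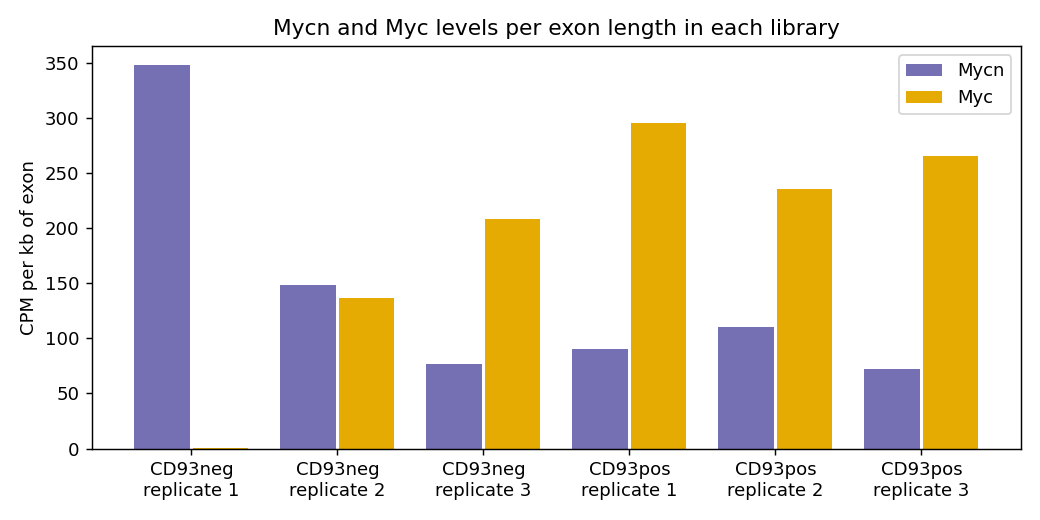
Levels of Mycn and Myc in CPM per kb of exon in the 6 libraries. Mycn exceeds Myc in CD93neg replicates 1 and 2, where it makes up 99.9% and 52.0% of their sum, and lies below Myc in the other 4 libraries.

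Tcf15, a basic helix-loop-helix factor that marks quiescent long-term HSCs, lies on chromosome 2 at 152143561 to 152149097 (plus strand). It had 182, 41 and 9 reads in CD93pos against 0, 0 and 21 in CD93neg. Normalized counts were 83.2, 32.5 and 5.54 against 0, 0 and 32.8, so the highest CD93neg library lay above 2 of the CD93pos libraries. For Tcf15 the log2 fold change was 3.03 (SE 1.88), with an adjusted p of 0.539 by limma, and was -0.34 under quantile normalization, 1.94 by edgeR and 1.89 by DESeq2. At its lowest CD93pos level, CD93neg replicates 1 and 2 would have held 3.56 and 5.81 reads, close to the floor of 3, so that depth limits the reading of their zeros. Among 8 tested E proteins, relatives and Id inhibitors, with which Tcf15-type factors pair or compete, 0 were called, 5 had a positive fold change and the median was 0.95. With CD93neg replicate 1 left out, 3 were positive and the median was -0.49. Lyl1, a stem cell factor of that class, had the smallest p. It stood at 1041 ± 199 normalized counts in CD93pos and 2529 ± 436 in CD93neg, without overlap, and its log2 fold change was -1.28 (SE 0.47, adjusted p = 0.288 by limma). The E protein genes Tcf4 and Tcf3 were at -1.49 (SE 0.95) and 3.26 (SE 2.68), and Id2 was at 2.46 (SE 2.22).

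Clec1a, Vldlr and Clca3a1, surface or secreted-pathway genes, shared 1 pattern: reads in every CD93pos library, none in CD93neg replicates 1 and 2, and a level in CD93neg replicate 3 within or above the CD93pos range. Clec1a encodes a C-type lectin receptor known from endothelium and immune cells and lies on chromosome 6 at 129424772 to 129452000 (minus strand). It had 268, 749 and 234 reads in CD93pos against 0, 0 and 268 in CD93neg. Its normalized counts were 122, 594 and 144 against 0, 0 and 419. The CD93neg library that was read thus lay above 2 of the CD93pos libraries. The CD93pos mean was 2.05 times that of CD93neg, and 0.954 times without CD93pos replicate 2. For Clec1a the log2 fold change was 4.88 (SE 2.60), with an adjusted p of 0.475 by limma, and without CD93neg replicate 3 it was 7.78 with an adjusted p of 0.0143. The fit without that library called 1880 of 11805 genes. It left CD93neg with no Clec1a read, so the positive sign was fixed in advance. The Clec1a log2 fold change was 1.06 by edgeR and 1.04 by DESeq2, near the log2 of the ratio of the means with all libraries. Under quantile normalization it was 2.10, also below the limma value of 4.88. At the lowest CD93pos level, CD93neg replicates 1 and 2 would have held 79.8 and 130 reads if depth alone set what was read. Both values are far above the floor of 3.

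Vldlr encodes the very low density lipoprotein receptor, a receptor for reelin and lipoproteins, and lies on chromosome 19 at 27216484 to 27254231 (plus strand). It had 385, 120 and 125 reads in CD93pos against 0, 0 and 75 in CD93neg, or 176, 95.1 and 76.9 normalized counts against 0, 0 and 117. A single CD93neg library lay within the CD93pos range and the others at 0, with means of 116 ± 52.7 and 39.1 ± 67.7 (SD, n = 3). Expected reads in CD93neg replicates 1 and 2 at the lowest CD93pos level were 49.5 and 80.6. For Vldlr the log2 fold change was 4.48 (SE 2.12), with an adjusted p of 0.445 by limma. Without CD93neg replicate 3, the library that held all the Vldlr reads of its group, it was 6.78 with an adjusted p of 0.0129 by limma. There too CD93neg was left at 0, so the sign was fixed in advance, and that fit called 1880 of 11805 genes. The Vldlr log2 fold change was 1.63 by edgeR, 1.57 by DESeq2 and 1.45 under quantile normalization, none of them called. Within the CD93pos group Vldlr was steadier than Clec1a, with a coefficient of variation of 0.475 in CPM. Of 9 tested genes of the reelin and lipoprotein receptor pathway, 0 were called, 7 had a positive fold change and the median was 0.68. Apoe, which carries lipids to such receptors, had the smallest p. It stood at 7738 ± 782 normalized counts in CD93pos and 5465 ± 412 in CD93neg, without overlap (log2 fold change 0.50, SE 0.12, adjusted p = 0.0869 by limma). Lrp8, the other reelin receptor gene, was at 4.33 (SE 1.68), Lrp6 at 3.16 (SE 2.35) and Sorl1 at 3.27 (SE 2.50).

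Clca3a1, a calcium-activated chloride channel regulator, lies on chromosome 3 at 144729677 to 144760977 (minus strand). It had 226, 1 and 169 reads in CD93pos against 0, 0 and 94 in CD93neg. Normalized counts were 103, 0.792 and 104 against 0, 0 and 147, with CD93pos replicate 2 near 0 and CD93neg replicate 3 the highest of all 6, so that the groups overlapped. The CD93pos mean was 1.42 times that of CD93neg, and 0.944 times without CD93neg replicate 1 or replicate 2. For Clca3a1 the log2 fold change was 2.35 (SE 2.52), with an adjusted p of 0.645 by limma, and was 0.61 by edgeR, 0.50 by DESeq2 and 0.04 under quantile normalization. None of the 7 other genes of the Clca family had a read in any library. Neo1, the neogenin receptor for netrins and repulsive guidance molecules, on chromosome 9 at 58874687 to 59036441 (minus strand), had 3, 0 and 39 reads in CD93pos against 1, 0 and 0 in CD93neg. Nearly all of its reads came from CD93pos replicate 3, and its mean of 8.46 normalized counts in CD93pos was 0.686 without that library. Of 6 tested genes of netrin and repulsive guidance signalling, 0 were called, 5 were positive and the median was 1.94. With CD93neg replicate 1 left out, 2 were positive and the median was -0.22. Dapk1, a kinase downstream of netrin receptors, was at 5.54 (SE 2.24), Bmpr1a at -2.94 (SE 2.09), Lmo4 at 2.84 (SE 2.46) and Bmpr2 at 2.00 (SE 2.24). Among the 11 tested genes of other C-type lectins, 0 were called, 7 had a positive fold change and the median was 1.16, while without CD93neg replicate 1 there were 5 and the median was -0.10. The smallest p values were those of Clec11a (4.46, SE 1.96), Clec4e (4.15, SE 1.94), Clec4d (3.45, SE 1.79) and Clec2d (2.27, SE 1.70).

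Nupr1, a small nuclear protein induced by stress, lies on chromosome 7 at 126623249 to 126630861 (minus strand) and was the gene of this group most even within CD93pos. It had 364, 229 and 238 reads in CD93pos against 1106, 471 and 188 in CD93neg. Its normalized counts were 166, 181 and 147 against 2008, 448 and 294. The groups did not overlap, with CD93neg higher, as for 1.92% of all tested genes (227) in that direction. The means were 165 ± 17.6 in CD93pos and 917 ± 948 in CD93neg (SD, n = 3). The CD93neg mean was 5.56 times that of CD93pos, and 2.25 times without CD93neg replicate 1. For Nupr1 the log2 fold change was -1.96 (SE 1.499), with an adjusted p of 0.605 by limma, and ranged from -2.52 to -1.14 with each library left out. The exact two-sided permutation test of CPM gave p = 0.1, the smallest possible. Among CD93pos libraries its coefficient of variation was 0.0893 in CPM. Of 14 tested genes of the integrated stress response, which acts through ATF4 and induces Nupr1, 0 were called, 14 had a positive fold change and the median was 2.20. Without CD93neg replicate 1, 8 of the 14 were positive and the median was 0.09. The smallest p values were those of Cebpg (5.13, SE 2.48), Eif2ak4 (3.84, SE 2.04), Eif2ak2 (4.35, SE 2.51) and Cebpb (2.17, SE 1.95). Atf4 itself, named after its values were seen, had 711, 379 and 699 reads in CD93pos against 0, 668 and 117 in CD93neg. It was thus unread in CD93neg replicate 1, the library with the highest Nupr1, where 70.95% of all tested genes had no read.

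Sult1a1, a phenol sulfotransferase, lies on chromosome 7 at 126672865 to 126676432 (minus strand). It had 305, 0 and 289 reads in CD93pos against 0, 841 and 214 in CD93neg, so that 1 library of each group had none. Normalized counts were 139, 0 and 178 against 0, 800 and 334. For Sult1a1 the log2 fold change was -1.14 (SE 3.15), with an adjusted p of 0.850 by limma. Its sign turned without CD93pos replicate 2 (1.30), CD93neg replicate 2 (0.68) or CD93neg replicate 3 (0.05), and it was -1.70 by edgeR, -1.84 by DESeq2 and -2.90 under quantile normalization. Sult1a1 shares 61 exon bases on the opposite strand with Sgf29, which had 362 to 1273 reads in every library. Of other sulfonation genes 2 were tested and 0 called, Papss1 at 4.51 (SE 2.94) and Sult5a1 at -1.67 (SE 1.96). Their median was 1.42, and 0.06 without CD93neg replicate 1.

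Levels differed widely among the 10 genes. In CPM per kb of exon, the CD93pos means ran in the order Mycn (91.2), Sult1a1 (16.0), Nupr1 (14.7), Clec1a (12.2), Tcf15 (9.34), Clca3a1 (4.07), Rarb (3.74), Vldlr (2.60), Neo1 (0.221) and Gprc5c (0.0177). Mycn in CD93pos stood clear of the others, since its lowest library, at 72.7, was above the highest library of any other of the 10 in CD93pos, 26.8 for Sult1a1. From Sult1a1 down to Vldlr, neighbours in this order overlapped in their library values, as did Neo1 and Gprc5c, while every Vldlr library lay above every Neo1 library. Summed over the 10 genes, CPM was 485, 610 and 399 in CD93pos and 1538, 772 and 539 in CD93neg, so the sum overlapped between groups. Mycn and Nupr1 together supplied 65.9% to 69.5% of these reads in CD93pos, and 99.95%, 76.4% and 58.4% in CD93neg.

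Other genes linked to dormant, label-retaining or long-term HSCs, 34 tested, were mixed: 22 had a positive fold change, 0 were called and the median was 1.15. With CD93neg replicate 1 left out, 10 of the 34 were positive and the median was -0.44, where 60.1% of all tested genes were positive. Itgb3 and Vwf, known from platelet-biased HSCs, were at 5.17 (SE 2.15) and 5.57 (SE 2.39), the angiopoietin receptor gene Tek at 5.02 (SE 2.18) and Tgm2, a transglutaminase, at -1.74 (SE 0.86). Genes of activated HSCs and multipotent progenitors, 22 tested, had a positive fold change in 20 cases with a median of 3.35 and 0 called, and without CD93neg replicate 1 there were 18, with a median of 1.41. Mki67, a marker of dividing cells, had 1545, 1065 and 1366 reads in CD93pos against 5, 0 and 0 in CD93neg (adjusted p = 0.0562 by limma). It passed the filter on low values through its CD93pos reads. Ccne1, a cyclin of entry into S phase, had 270, 220 and 101 against 0 in each CD93neg library, and so passed the filter through CD93pos alone (adjusted p = 0.0558 by limma). Cdk6 was at 2.49 (SE 0.74) and Ccne2 at 5.46 (SE 2.14).

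Summed levels of markers of other cells also differed between the libraries, and their part in the results above was not tested. Summed CPM of 14 neutrophil markers was 279 to 686 in CD93pos and 254, 14609 and 9520 in CD93neg, with 2 of 14 positive and a median log2 fold change of -5.06. For 12 B lineage markers, 8 of them tested, it was 73.7 to 100.4 in CD93pos and 0.353, 11211 and 34017 in CD93neg, with 1 positive and a median of -3.70. Mast cell and basophil markers, 6 tested and all positive with a median of 6.82, summed to 94.7 to 1057 CPM in CD93pos and to 0, 27.5 and 0 in CD93neg. Only 1 of these genes was read in CD93neg, in replicate 2. The other tested ones passed the filter through CD93pos alone, so their positive sign was fixed in advance. Erythroid markers (8 tested, 7 positive, median 4.03) summed to 3367 to 4170 CPM and 2999 to 3671 CPM, and megakaryocyte markers (11 tested, 8 positive, median 4.06) to 1698 to 2723 and 811 to 1866. Endothelial markers, which matter here because Clec1a is also an endothelial gene, summed to 658 to 709 CPM in CD93pos and to 1681, 643 and 759 in CD93neg, with 6 of 8 tested positive and a median of 2.36. Of the 15 endothelial genes listed, 10, 6 and 10 were read in CD93pos replicates 1, 2 and 3, and 3, 6 and 6 in those of CD93neg. Cdh5, Stab2, Lyve1 and Sox17 had no read in any library. Stromal markers (2 tested, both positive, median 3.05) summed to at most 17.8 CPM in a library, and Lepr, Col1a1, Col3a1, Pdgfra, Kitl and Bglap were at 0 in every library. Without CD93neg replicate 1 the medians were -8.49 for neutrophil, -7.03 for B lineage, 1.34 for endothelial and 1.256 for megakaryocyte markers.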

How the data were processed

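The titles in the labels put the 6 RNA-seq libraries into CD93pos and CD93neg HSCs, 3 each. Tools in the submitters' processing notes are STAR, DESeq2 1.26 and featureCounts (Subread 1.5.0-p1). The builds named there are mm10 and GRCm38, and the annotation release is not given in the sources used here. The authors deposited a signal table, the counts of each gene divided by the size factor of its library. Their other deposited table holds, per its header, DESeq2's mean signal, log2 fold change with standard error, Wald score, p-value and adjusted p-value.

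From the signal, whole reads were recovered for 100% of values above 0 (tolerance 0.001). CPM are those reads scaled to 1000000 per library. Because many genes had no read in a CD93neg library, log2 fold changes vary with the pseudocount. They understate the change of genes low in every library, and can far exceed the ratio of the means where some libraries of a group are at 0.

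limma 3.58.1 (lmFit, eBayes with a trend, two-sided) was fitted in R 4.3.3 to log2(normalized count + 1) of the 11805 genes with a mean of 10 or more, and p was adjusted by Benjamini-Hochberg over all of them at a threshold of 0.05. edgeR 4.0.16 (quasi-likelihood) and DESeq2 1.42.0 on the recovered reads, pseudocounts of 0.5 and 5, filters, scalings, a replicate block and each library left out were alternatives. The fit was tested on simulated data, where it recovered changed genes at a low spread between replicates and none at a high spread, so that 0 calls does not show that genes did not differ. Exon lengths and positions came from GENCODE M21 (GRCm38), joined on IDs without their version, which matched 47224 of 47937. Other steps used matplotlib 3.10.9, pandas 2.3.3 and numpy 2.4.6 under Python 3.11.15.

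The genes followed and the 19 other lists (12 of pathways, families and HSC states, 7 of cell type markers) were chosen with earlier results of these data known. All 10 genes are named, and from each other list up to 4 tested genes with the smallest unadjusted p; for marker lists, summed levels, counts, medians and the markers at 0 are given in place of such genes. The list symbols Ntn3, Hjv, Miz1 and Nupr2 matched no gene of the table.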

Additional observations from a re-analysis of the deposited data

How the results depend on the processing

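Where limma called 0 genes, 206 were called with a pseudocount of 0.5 (204 of them higher in CD93pos) and 705 by DESeq2 on the recovered reads (659 higher, 46 lower), none of them among the genes followed, although DESeq2 gave Rarb, Clec1a and Clca3a1 no adjusted p. The cause was not tested. With each library left out in turn, between 0 and 1880 genes were called, 774 without CD93pos replicate 2, 1 without CD93neg replicate 1 and 1880 without CD93neg replicate 3. Of the 8 dormancy genes between 0 and 2 were called: Rarb without CD93pos replicate 2, and Clec1a and Vldlr without CD93neg replicate 3. These stand beside 774 and 1880 calls among all 11805 genes in the same fits. In each case the CD93neg libraries kept had no read of the gene, so the sign was fixed in advance. Signs turned for Tcf15 under quantile normalization (-0.34) and for Sult1a1 with libraries left out, where its log2 fold change ran from -4.15 to 1.30. No sign of another of the 8 genes turned in the alternatives run. Rarb had no CD93neg read, so outside quantile normalization its sign could not turn. The median of the 8 genes, 2.69 in limma, lay between -0.15 (quantile normalization) and 4.74 over all alternatives. With a minimum mean of 50, Rarb and Tcf15 were not tested.

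With the replicate number as a block 24 genes were called (15 higher), none of the genes followed. The deviations of same-numbered libraries correlated at 0.037, 0.019 and 0.061, and those of differently numbered libraries at -0.047 to 0.0099. Correlations this weak cannot decide whether the numbers pair the libraries. The low depth of CD93neg limits what zeros can show for Tcf15, Clca3a1, Neo1 and Gprc5c, whose lowest CD93pos level would give few or no reads there. For Rarb, Clec1a and Vldlr the expected reads were higher, but they assume that depth alone sets which genes are read. The low share of tested genes read in CD93neg replicate 1, 29.0%, limits those zeros too.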
